A study of Mus musculus with 2 samples.

Results

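Cells of the postnatal day 7 mouse retina that carried early neurogenic genes were selected from single-cell RNA-seq counts. The selection used measured values. A cell was taken when it held at least 1000 unique molecular identifiers (UMIs, counted transcript molecules) outside mitochondrial genes and a UMI of at least 3 of 7 early genes, namely Neurog2, Dll1, Rgs16, Eya2, Smoc1, Sox8 and Sox1. Cells were left out when they held UMIs of 2 or more of 5 genes of committed precursors (Atoh7, Olig2, Dll4, Tfap2d, Mybl1) or of 4 or more of 10 G2/M genes (Top2a, Ccnb1, Cdk1, Ube2c, Birc5, Cenpf, Tpx2, Aurkb, Hmmr, Mki67). This rule chose 285 of 6330 cells, 154 of 3541 in the control library and 131 of 2789 in the Mettl3-CKO library, and they are called early-marker cells in the text and members in some plots.

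Each group was 1 library with no replicate. The control library mixed retinas of 2 control pups and the Mettl3-CKO library mixed retinas of 2 pups in which floxed Mettl3 alleles were deleted by Six3-Cre, all from a single litter at postnatal day 7. Six3-Cre is active in retinal progenitor cells (RPCs) from embryonic day 9.5. The study saw efficient loss of Mettl3 protein by staining in the central retina, while whole retinas went into these libraries. Whether each early-marker cell of the Mettl3-CKO library had lost Mettl3 was not tested, so the pool may hold cells that kept it. The Cre status of the control pups is not given in the sources used here. Every difference between groups below is therefore a difference between 2 libraries, no test of it was possible, and intervals (95%) cover counting error only.

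Late RPCs either leave the cell cycle as rods, bipolar cells and amacrine cells or become Müller glia. Proneural factors of the basic helix-loop-helix class, such as Neurog2, push cells toward neurons and switch on Notch ligands such as Dll1, which activate Notch in neighbouring cells. In the receiving cell, active Notch works with Rbpj to switch on Hes and Hey repressors that hold proneural genes down, and the same effectors stay on in Müller glia. Mettl3 is the methyltransferase that places N6-methyladenosine (m6A) on mRNA, a mark known to shorten the life of many transcripts.

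The promoters of Neurog2, of Dll1 and of Hes5, the Notch effector with the most UMIs in these cells, are shown because the results below set this ligand pathway and its readout side by side. They are RefSeq sequences of GRCm38.p6 from 250 bases before to 50 after a start, written 5′ to 3′ on the gene's strand, with capitals marking matches on either strand to the E-box CANNTG, which basic helix-loop-helix factors bind, and to GTGGGAA, the motif of Rbpj.
Neurog2, chr3:127632886-127633185, plus strand: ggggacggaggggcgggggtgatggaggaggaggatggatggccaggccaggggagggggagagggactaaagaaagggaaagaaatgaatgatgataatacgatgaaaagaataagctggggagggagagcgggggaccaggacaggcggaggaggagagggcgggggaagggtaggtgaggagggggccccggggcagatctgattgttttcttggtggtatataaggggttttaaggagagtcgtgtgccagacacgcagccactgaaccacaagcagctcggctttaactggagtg
Dll1, chr17:15376883-15377182, minus strand: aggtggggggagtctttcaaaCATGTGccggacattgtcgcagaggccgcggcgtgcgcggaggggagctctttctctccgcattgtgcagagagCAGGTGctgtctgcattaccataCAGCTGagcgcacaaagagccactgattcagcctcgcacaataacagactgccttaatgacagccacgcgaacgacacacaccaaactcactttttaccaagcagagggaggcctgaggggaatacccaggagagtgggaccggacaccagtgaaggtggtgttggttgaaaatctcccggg
Hes5, chr4:154960673-154960972, plus strand: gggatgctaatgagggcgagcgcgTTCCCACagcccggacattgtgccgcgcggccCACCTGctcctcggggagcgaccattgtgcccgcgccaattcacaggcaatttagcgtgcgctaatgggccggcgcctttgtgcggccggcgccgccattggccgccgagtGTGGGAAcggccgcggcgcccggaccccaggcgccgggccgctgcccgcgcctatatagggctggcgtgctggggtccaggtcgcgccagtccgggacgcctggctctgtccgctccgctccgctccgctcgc
Dll1 has a window at each of 2 starts, and the upstream one is shown. It held 3 matches to CANNTG, of which 1 was CAGCTG, and none to GTGGGAA, and the other, chr17:15375774-15376073, held 1 match to CANNTG and none to CAGCTG or GTGGGAA. The Hes5 window held 2 matches to GTGGGAA and 1 to CANNTG. No match to either motif lay in the Neurog2 window. Over 32851 promoter windows of the same length, 72.3% held CANNTG, 16.3% CAGCTG and 6.38% GTGGGAA. Of the 7 early genes, 5 had a window, and of 14 Notch effectors, 10 had a window and 2 of these, Hes5 and Hey2, held GTGGGAA. A match is a description of letters and not a bound site.

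Both libraries were read in part, since the matrices end early and 2001 control and 3883 Mettl3-CKO cells were not analysed here, so the sums do not give library size. The analysed cells held 20955138 (control) and 19957693 (Mettl3-CKO) UMIs outside mitochondrial genes, with a median per early-marker cell of 9216 and 8274 UMIs. Among all analysed cells 5 barcodes occurred in both libraries, and 0 of them belonged to an early-marker cell. A doublet caller marked 36 control cells (1.02%) and 32 Mettl3-CKO cells (1.15%), of which 4 and 4 were early-marker cells. All of them were kept. More Mettl3-CKO cells than were marked held UMIs of both sexes, as given with the sex-linked genes below. Whether unmarked doublets remain was not tested.

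Some selected cells stood apart from the rest, and results that rest on them are given with and without them. In the control library 6 cells, each with at least 16000 UMIs and at least 2 UMIs of Pax2, a factor of the optic stalk and optic disc, all had UMIs of Eya2 and Sox8, while 1 had a UMI of Dll1 and 1 of Rgs16. They held 3 UMIs of Hes5 in all, against 4375 in the other 148 control early-marker cells. These 6 cells supplied 90.8% of the Fn1, 91.0% of the Crip1, 99.0% of the Ccnd2 and 52.0% of the Eya2 UMIs of the control early-marker cells. In the Mettl3-CKO library 1 cell held 71838 UMIs, while the next deepest held 25736. It supplied 55.8% of the Cplx3, 50.4% of the Pdc and 44.8% of the Sag UMIs, held 0 UMIs of Rlbp1 and 1 of Hes5, and was not marked as a doublet. Values for the early-marker cells of 4000 to 16000 UMIs, a range chosen after these cells had been seen, leave out all of them. That range held 135 control and 124 Mettl3-CKO cells.

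The cells carried the genes they were selected on unevenly. Rgs16, a regulator of G-protein signalling, had a UMI in 92.9% of control and 92.4% of Mettl3-CKO early-marker cells. The ligand Dll1 had a UMI in 89.0% and 82.4%, and the transcription factor Sox8 in 90.3% and 81.7%. Neurog2 had a UMI in 75 control cells (48.7%) and 72 Mettl3-CKO cells (55.0%), so that a large part of the selected cells held Dll1 without a detected Neurog2 transcript. In the cells outside every marker class, with medians of 4448.5 and 4822.5 UMIs, the share with a Neurog2 UMI was 2.45% and 2.99%. Eya2, Smoc1 and Sox1 were seen in fewer cells, namely 10.4% and 16.03%, 19.5% and 23.7%, and 3.90% and 22.1%. Sox8 was the early gene most shared with glia, with a UMI in 61.9% and 64.4% of cells chosen by Müller markers.

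The most frequent set of early genes was Dll1, Rgs16 and Sox8 without the others, in 57 control and 27 Mettl3-CKO cells. The same set with Neurog2 followed, in 33 and 19 cells. At the limit of the rule, 87 control and 67 Mettl3-CKO cells held 3 early genes, while 206 and 166 cells under the same committed and G2/M limits held 2. UMIs per 1000000 UMIs of the same cells (CPM) of Hes5 were 2548 and 2321 in the former and 2121 and 1292 in the latter. Gadd45g, a stress and growth-arrest gene, was at 667 and 961 CPM just inside and at 738 and 593 CPM just outside. The name of early neurogenic cells with Neurog2 and Dll1 would thus leave out many of the selected cells. At least 3 of 7 Müller markers were seen in 87 of the 154 control cells (56.5%) and 51 of the 131 Mettl3-CKO cells (38.9%). The cells are called early-marker cells for that reason.

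**Figure D1:**
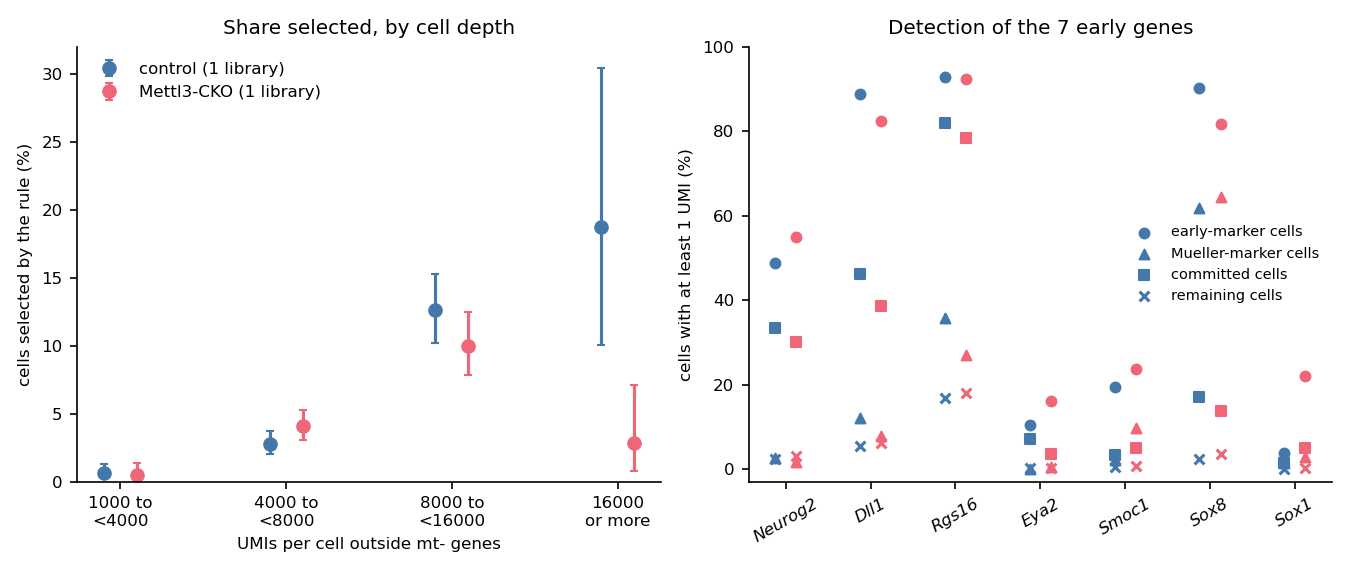
Left, share of cells selected by the rule (%) in 4 ranges of UMIs per cell, with exact binomial 95% intervals. Right, share of cells with a UMI (%) of each early gene in early-marker, Müller-marker, committed and remaining cells, control in blue and Mettl3-CKO in pink. Selected cells were 12.6% and 10.0% at 8000 to 16000 UMIs but 18.75% and 2.84% above, and Rgs16, Dll1 and Sox8 were seen in most selected cells while Sox1 was seen in 3.90% and 22.1%.

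Early-marker cells made up a like share of both libraries. Their share was 4.35% in the control (exact Clopper-Pearson interval 3.70 to 5.07) and 4.70% in Mettl3-CKO (3.94 to 5.55), a ratio of 1.08 (Katz log interval 0.860 to 1.36). Cells with 3 early genes before the committed and G2/M limits were 7.23% and 9.21%, a ratio of 1.27 (1.08 to 1.504). The committed limit was exceeded by 68 control and 74 Mettl3-CKO cells of these and the G2/M limit by 41 and 67, where 7 and 15 cells exceeded both. Selected cells with a Neurog2 UMI were 2.12% and 2.58% of all cells, a ratio of 1.22 (0.885 to 1.68).

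The share followed the depth of the cells. Of cells with 1000 to under 4000 UMIs, 0.639% and 0.485% were selected, of cells with 4000 to under 8000 UMIs 2.79% and 4.06%, and of cells with 8000 to under 16000 UMIs 12.6% and 10.0%. At 16000 UMIs or more the shares were 18.75% of control cells and 2.84% of Mettl3-CKO cells, where 6 of the 12 control cells were those with Pax2. With every cell thinned to 2000 UMIs the shares were 1.62% and 2.44% and their ratio 1.51 (1.04 to 2.18), after 448 control and 204 Mettl3-CKO cells of at least 1000 UMIs had been left out as shallower. With 1000 and 4000 UMIs the ratios were 1.27 (0.684 to 2.35) and 1.07 (0.800 to 1.42). Between 50% and 83.9% of the cells selected after thinning were early-marker cells by the unthinned rule.

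Beyond the selecting genes, early-marker cells were high in Notch effectors, progenitor factors and glial genes and low in photoreceptor genes. Of 8247 genes compared, 461 (5.59%) were at least 2-fold higher in early-marker cells than in the other cells of both libraries and 715 (8.67%) at least 2-fold lower. Of 13 Notch effectors 7 were higher and 0 lower, of 17 progenitor factors 8 were higher and 0 lower, and of 5 Müller markers 4 were higher. Of 12 photoreceptor and bipolar fate factors 11 were lower, and all 11 rod markers compared were lower. The median log2 ratio over the Notch effectors was 1.60 (control) and 1.19 (Mettl3-CKO), against -0.09 and -0.04 over all genes. These are descriptions of 1 library each.

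The genes furthest above the other cells, after the selecting genes, were led by Miat when ranked by the smaller of the ratios in the libraries, while Ppp1r17 had a larger ratio (7.93-fold) in Mettl3-CKO cells. Miat is a long noncoding RNA that is also known from retinal progenitors. Miat was at 803 CPM in control and 885 CPM in Mettl3-CKO early-marker cells, against 115 and 120 CPM in the other cells (6.95-fold and 7.39-fold). Ncald, a neuronal calcium sensor, was at 641 and 577 CPM (5.56-fold and 5.52-fold), and Ass1, an enzyme of arginine synthesis, at 682 and 360.0 CPM (5.78-fold and 4.96-fold). Hes5 was at 2866 and 2567 CPM against 593 and 583 CPM in the other cells (4.83-fold and 4.4-fold). The potassium channel Kcnh7 and the phosphatase inhibitor Ppp1r17 were also among the 12 highest, with Necab3, Cnp, Brinp2, Prr5l and Sowaha.

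Some of these genes were shared with Müller-marker cells, which are cells outside the classes above with at least 3 of Rlbp1, Vcam1, Npy, Glul, Aqp4, Kcnj10 and Car14. Hes5, Ncald and Ass1 were at 2882, 585 and 559 CPM in control Müller-marker cells, close to the early-marker cells. Miat and Brinp2 were not, at 218 and 12.7 CPM in control Müller-marker cells against 803 and 49.1 CPM in early-marker cells. Miat was also high in committed cells, at 532 CPM. The lowest genes were Opn1sw, the short-wave cone opsin, at 3.93 and 8.84 CPM against 347 and 349 CPM in the other cells, the rod channel subunit Cnga1, and AI847159, Pla2g7, Podxl and Unc80.

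**Figure D2:**
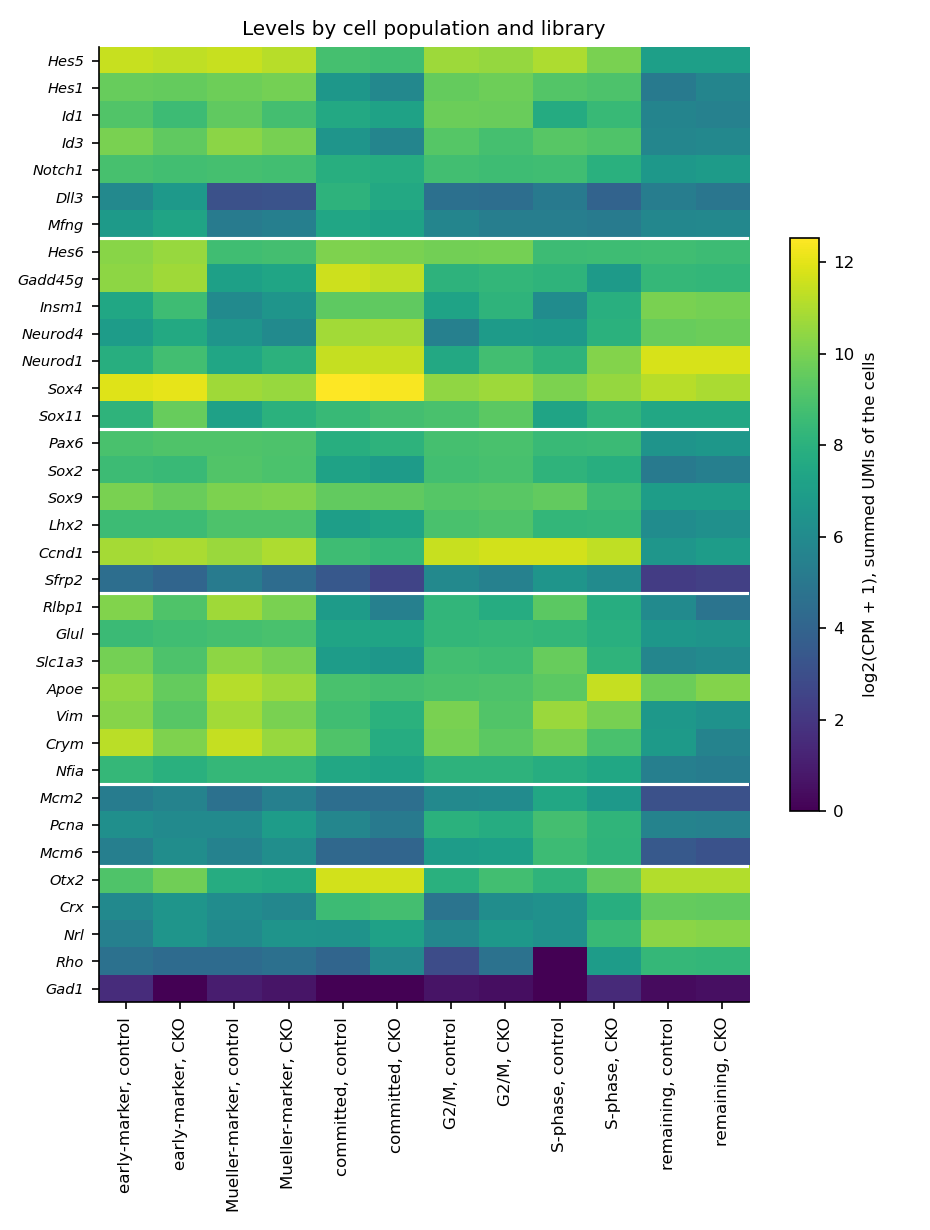
Levels as log2(CPM + 1), colour scale, of 35 genes (rows, white lines between gene groups) in 6 cell populations of each library (columns), from summed UMIs of the cells. Early-marker cells share Hes5, Hes1 and Rlbp1 with Müller-marker cells, at 2866 and 2882 CPM of Hes5 in the control, while Neurod4 and Neurod1 are far higher in committed cells, which have little Hes1.

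The closest population was the Müller-marker cells. Of 7765 genes, 58 (0.747%) were at least 2-fold higher in early-marker cells in both libraries and 38 (0.489%) at least 2-fold lower. Of the 13 Notch effectors, 0 were 2-fold apart in both libraries. Notch1 was at 466 and 425 CPM in early-marker cells and at 461 and 418 CPM in Müller-marker cells. Hes1 was at 793 and 758 CPM, against 866 and 969 CPM. Effectors of lower level leaned toward the Müller-marker cells. Hey2 was at 70.1 and 53.03 CPM in early-marker cells against 122 and 124 CPM, and Nrarp, a feedback inhibitor of Notch, at 220.0 and 166 CPM against 332 and 226 CPM.

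Several genes of the proneural programme stood higher in early-marker than in Müller-marker cells. Of 8 proneural factors, 2 were at least 2-fold higher in both libraries and 0 lower. Of 9 genes known to accompany proneural activity, 4 were at least 2-fold higher in both libraries, namely Gadd45g, Hes6, Insm1 and Btg2. Gadd45g was at 1326 and 1691 CPM against 140 and 162 CPM in Müller-marker cells (9.48-fold and 10.4-fold). Hes6, which counters Hes1, was at 1255 and 1519 CPM against 405 and 436 CPM. Sox4, a factor of differentiating neurons, was at 3861 and 4251 CPM against 1695 and 1558 CPM. The Notch ligand Dll3 stood at 58.9 and 106 CPM against 7.62 and 8.19 CPM, and Mfng, a glycosyltransferase that modifies Notch, at 111 and 159 CPM against 35.6 and 41.0 CPM. Otx2, the factor of photoreceptor and bipolar fate, was at 533 and 890 CPM against 212 and 197 CPM. The Müller markers were lower in early-marker cells for all 6 compared, but they had selected the Müller-marker cells. Cells that met the early-marker rule were also taken out of the Müller-marker cells. Differences in genes that accompany Neurog2 and Dll1 are therefore not independent of the selection.

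Against committed cells, which carried 2 or more of Atoh7, Olig2, Dll4, Tfap2d and Mybl1, the early-marker cells were higher in Notch effectors and lower in later neurogenic factors. Of 7877 genes, 453 (5.75%) were at least 2-fold higher in early-marker cells of both libraries and 249 (3.16%) lower. Of 14 Notch effectors 11 were higher, of 17 progenitor factors 10, of 16 further glial genes 12, and of 5 Müller markers 5. Hes1 was at 793 and 758 CPM in early-marker cells and at 97.5 and 56.6 CPM in committed cells (8.13-fold and 13.4-fold). Id3, an inhibitor of basic helix-loop-helix factors, was at 1011 and 701 CPM against 92.5 and 50.3 CPM. The cell cycle gene Ccnd1 was at 1803 and 1985 CPM against 402 and 331 CPM.

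The later factors stood the other way. Neurod4 was at 120.5 and 194 CPM in early-marker cells against 1763 and 1829 CPM in committed cells, and Neurod1 at 228 and 420.2 CPM against 2704 and 2766 CPM. Both are basic helix-loop-helix factors of differentiating neurons. Otx2 was at 533 and 890 CPM against 3247 and 3226 CPM, and Insm1 at 177 and 403 CPM against 694 and 709 CPM.

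The early-marker cells varied among themselves along the same line. Cells of 4000 to 16000 UMIs were split by a Neurog2 UMI, into 65 with and 70 without in the control library and 68 and 56 in the Mettl3-CKO library. Their median depths were alike, 8673 and 9060 UMIs (control) and 8090 and 9108 UMIs (Mettl3-CKO). Of 4622 genes, 32 (0.692%) were at least 2-fold higher with Neurog2 in both libraries and 22 (0.476%) lower. Since Neurog2 was a selecting gene and a cell without it needed 3 others, the early genes themselves are not compared.

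Otx2 was far higher with Neurog2 in both libraries, with the largest ratio among the named genes in the control, while Neurod4 and Meg3 had larger ones in Mettl3-CKO cells. Otx2 was at 976 CPM with and 103 CPM without a Neurog2 UMI in control cells (9.44-fold, 7.34 to 12.3) and at 1407 and 249 CPM in Mettl3-CKO cells (5.66-fold, 4.70 to 6.86). Gadd45g was at 2737 and 454 CPM in control (6.03-fold) and 2847 and 773 CPM in Mettl3-CKO cells (3.68-fold). Neurod4, the splicing regulator Srrm4, the noncoding RNA Meg3, the neuronal tubulin Tubb3, Dll3 and Insm1 were also higher with Neurog2 in both libraries.

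Id2, an inhibitor of basic helix-loop-helix factors, was the lowest named gene with Neurog2 in the control, while Pdc and Ndrg2 were lower in Mettl3-CKO cells. Id2 was at 128 CPM with and 354 CPM without it in control and at 153 and 453 CPM in Mettl3-CKO cells. Spon1, Ndrg2, Cox4i2, Tagln2, Pmm1, Kbtbd11 and the rod gene Pdc were lower too. Hes5 was at 2794 and 3577 CPM in control and 2519 and 2982 CPM in Mettl3-CKO cells, so it remained high with and without Neurog2. At least 3 Müller markers were seen in 44.6% of control cells with and 71.4% without Neurog2, and in 25% and 55.4% of Mettl3-CKO cells. Cells without Neurog2 had been selected on at least 3 of the other early genes, often with Sox8, which Müller-marker cells share. The difference in glial genes is therefore not independent of the selection.

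**Figure D3:**
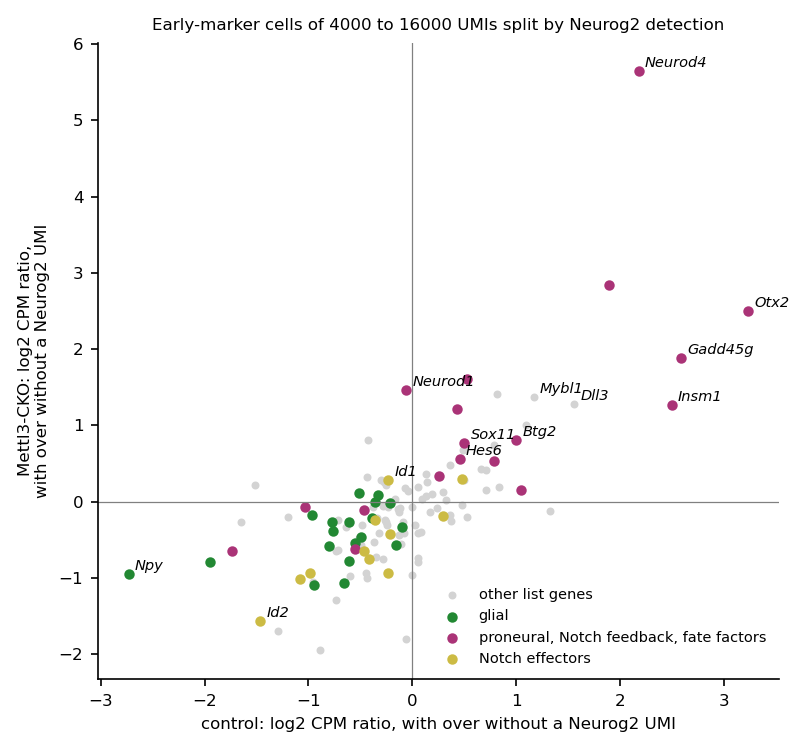
Log2 CPM ratio of early-marker cells of 4000 to 16000 UMIs with a Neurog2 UMI over those without, in the control library (x axis) and the Mettl3-CKO library (y axis), 1 point per list gene, coloured by gene group. Otx2, Gadd45g, Insm1 and Neurod4 lie far up and right, while Id2 and Npy and most glial genes lie below 0 on both axes.

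Few early-marker cells carried the S-phase programme. At least 4 of 10 S-phase genes were seen in 18 of 154 cells (11.7%, 7.08 to 17.8) in the control and in 19 of 131 (14.5%, 8.96 to 21.7) in Mettl3-CKO, a ratio of 1.24 (0.680 to 2.26). The share was 50% and 51.0% in G2/M cells and 2.86% and 3.66% in committed cells. In Müller-marker cells it was 7.62% and 20.3%, a ratio of 2.67 (1.55 to 4.59). Thinned to 2000 UMIs, 7 of 150 control and 4 of 130 Mettl3-CKO early-marker cells met the limit of 4 genes, a ratio of 0.659 (0.197 to 2.20). Other limits gave ratios above 1. They were 1.13, 1.86 (0.972 to 3.57) and 1.59 for at least 1, 2 and 3 genes after thinning and 1.48 and 1.65 for at least 3 and 5 genes without thinning. Every interval for early-marker cells held 1. A difference in S-phase content between early-marker cells of the libraries was not detectable with these cells.

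Between libraries, early-marker cells of the Mettl3-CKO retina held more transcripts of some proneural and some m6A-related genes and fewer of many glial genes. Several of these differences were also seen in other marker classes, as given below. Of 7383 genes, 625 (8.47%) were at least 1.5-fold higher in the Mettl3-CKO library and 439 (5.95%) at least 1.5-fold lower. In cells of 4000 to 16000 UMIs the numbers were 502 of 6732 (7.46%) and 373 (5.54%). The median log2 ratio over all genes was 0.05. A lower number of UMIs of a gene can mean fewer cells with it or less RNA per cell, and summed counts do not tell these apart.

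Of the selecting genes, described without any reading, Neurog2 was at 205 CPM (exact Poisson interval 183 to 229) in control and 380.1 CPM (347 to 416) in Mettl3-CKO cells. Dll1 was at 221 and 258 CPM and Rgs16 at 507 and 693 CPM. Sox1 was at 3.93 CPM, from 6 UMIs, and at 44.2 CPM, from 55 UMIs. Sox1 shares bases with 2 genes on its own strand, and Smoc1 with 1, so their UMIs may hold those of another gene.

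Most Notch receptors, ligands and effectors lay within 1.5-fold. Notch1 was at 466 and 425 CPM, a ratio of 0.912 (0.8133 to 1.02), and Rbpj, the DNA-binding partner of Notch, at 99.5 and 104 CPM. Hes1 was at 793 and 758 CPM, a ratio of 0.957 (0.878 to 1.04). Hes5 was at 2866 and 2567 CPM, a ratio of 0.896 (0.855 to 0.938). Id1 was at 558 and 390 CPM, and Id3 at 1011 and 701 CPM, a ratio of 0.693 (0.638 to 0.754). Of 13 Notch effectors, 0 were at least 1.5-fold higher and 1, the coactivator Maml2, was at least 1.5-fold lower, at a ratio of 0.661 whose interval (0.369 to 1.15) held 1, with a median log2 ratio of -0.16 in all early-marker cells and -0.23 at 4000 to 16000 UMIs. In the other cells of the libraries the median of the same genes was 0.07. Of the 9 receptors, ligands and modifiers compared, Dll3 alone passed 1.5-fold, at 58.9 and 106 CPM.

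Several proneural factors and companion genes were at least 1.5-fold higher in the Mettl3-CKO cells, among them Sox11 and Insm1. Sox11, a factor of immature neurons, was at 283 and 779 CPM, a ratio of 2.75 (2.46 to 3.09), and had UMIs in 114 control and 113 Mettl3-CKO cells. In the other cells its ratio was 1.32, with 1.80 in Müller-marker, 1.35 in G2/M and 1.23 in committed cells. Insm1, a zinc finger factor of neurogenic progenitors, was at 177 and 403 CPM, a ratio of 2.27 (1.96 to 2.65), against 0.911 in the other cells. Hes6, at 1255 and 1519 CPM, and Gadd45g, at 1326 and 1691 CPM, lay within 1.5-fold.

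By lists, 5 of 8 proneural factors and 5 of 9 companion genes were at least 1.5-fold higher and 0 lower. Their medians of log2 ratios were 0.71 and 0.65, and in cells of 4000 to 16000 UMIs 0.45 and 0.39, with 2 of 7 and 3 of 9 genes past 1.5-fold. With at least 4 early genes per cell they were 0.082 and 0.44. In the other cells of the libraries the medians were 0.09 and -0.01. For companion genes the Müller-marker and G2/M cells stood closer to the early-marker cells, and for proneural factors the G2/M cells did. Companion genes summed to 4310 and 5758 CPM in early-marker cells, 1326 and 1722 CPM in Müller-marker cells, 1921 and 2389 CPM in G2/M cells and 7910 and 7309 CPM in committed cells. Proneural factors summed to 5286 and 6781 CPM in early-marker cells, 2438 and 2449 CPM in Müller-marker cells and 2885 and 3721 CPM in G2/M cells. In committed cells the proneural factors summed to 11873 and 11620.5 CPM. A difference particular to early-marker cells was not tested. Part of the count rests on few cells. Prdm13, at 0.655 and 57.9 CPM, had 72 UMIs in 6 Mettl3-CKO cells, of which 50% lay in 1 cell. Among fate factors 7 of 10 were higher and 1 lower, with Otx2 at 533 and 890 CPM (ratio 1.67, 1.52 to 1.83) and Isl1, a factor of bipolar and amacrine cells, at 38.0 and 5.62 CPM in 7 control and 2 Mettl3-CKO cells. The median over the fate factors was 0.72. At 4000 to 16000 UMIs 4 of 10 were higher and 2 lower, with a median of 0.47, and with at least 4 early genes the median turned to -0.17.

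The lists did not share an order between cells with and without Neurog2. In cells with a Neurog2 UMI the median log2 ratio of Mettl3-CKO over control was 0.98 over the proneural factors and 1.13 over the fate factors, and in cells without one it was -0.21 and -0.01. Over the companion genes it was 0.42 with and 0.52 without a Neurog2 UMI. Among the Notch effectors the medians were -0.32 and -0.13. These subsets hold 75 and 72 cells with and 79 and 59 without Neurog2, the deepest Mettl3-CKO cell is among those with it, and the difference between them was not tested.

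Glial genes stood lower in the Mettl3-CKO early-marker cells. Rlbp1, the retinaldehyde-binding protein of Müller glia, was at 1118 and 530.3 CPM, a ratio of 0.474 (0.433 to 0.519), with UMIs in 138 control and 100 Mettl3-CKO cells. Vim, a glial and progenitor filament, was at 1209 and 616 CPM, Slc1a3, the glial glutamate transporter, at 947 and 515 CPM, and Apoe, a lipid carrier, at 1436 and 768 CPM. Crym, a thyroid hormone-binding protein, was at 2393 and 1094 CPM, a ratio of 0.457 (0.429 to 0.487). Npy was at 88.4 and 17.7 CPM, seen in 41 and 9 cells. Glul, the glutamine synthetase of Müller glia, did not share this, at 365 and 407 CPM, a ratio of 1.12 (0.988 to 1.26), nor did the gliogenic factor Nfib, at 756 and 779 CPM.

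Over the lists, 3 of 5 Müller markers and 7 of 16 further glial genes were at least 1.5-fold lower and 0 higher, with medians of -0.79 and -0.55. At 4000 to 16000 UMIs, which leaves out the 6 deep cells with Pax2, the medians were -0.76 and -0.54. In the other cells of the libraries the medians were smaller, -0.25 and -0.13. Among Müller-marker cells the summed level of the 7 Müller markers was 2866 (control) and 1919 CPM (Mettl3-CKO), among early-marker cells 1762 and 1074 CPM. All 18 genes of the further glial list summed to 10341 and 6311 CPM in early-marker cells and 13443.5 and 9525 CPM in Müller-marker cells. They summed to 3271 and 2625 CPM in committed and 6349 and 5379 CPM in G2/M cells, but to 1924 and 2304 CPM in remaining cells. Whether the glial difference is particular to early-marker cells was not tested. The share of early-marker cells with a Neurog2 UMI, in which glial genes were lower in both libraries, was 48.7% and 55.0%. Within cells with Neurog2 the median of the Müller markers between libraries was -0.92 and within those without -0.61.

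**Figure D4:**
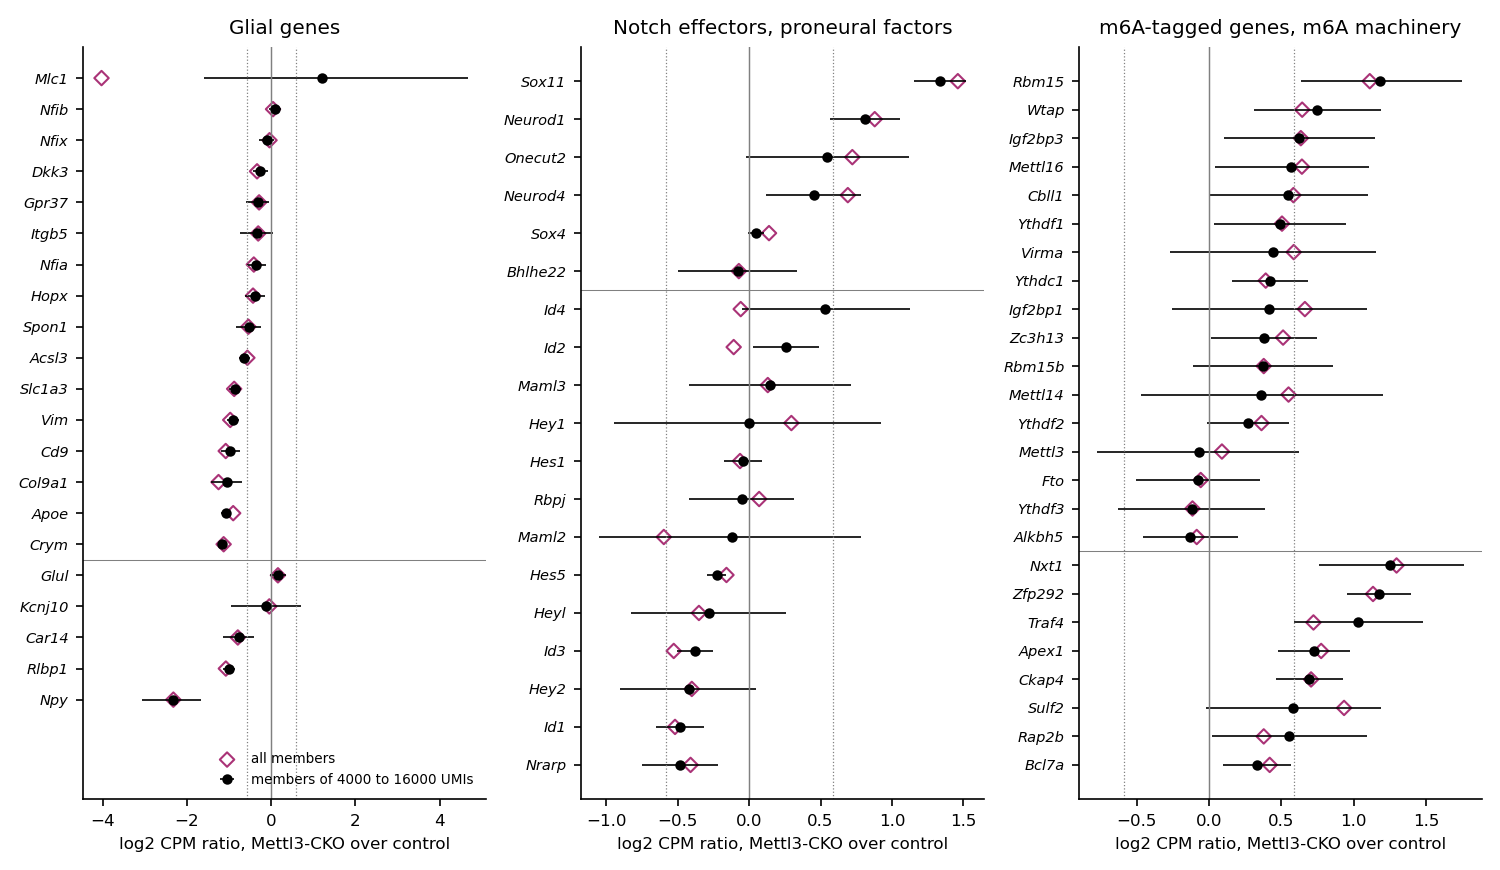
Log2 CPM ratio of Mettl3-CKO over control for genes of 6 lists (Müller, glial, Notch effector, proneural, m6A-tagged, m6A machinery) tested in cells of 4000 to 16000 UMIs, in all early-marker cells (open diamonds) and in those of 4000 to 16000 UMIs (black circles, with exact conditional 95% intervals), with grey horizontal lines between lists and dotted lines at 1.5-fold. Rlbp1, Crym, Apoe and Npy lie left of the lower dotted line, Sox11, Nxt1, Zfp292 and Rbm15 right of the upper one, and Mlc1 moves from left to right of 0 when the deep cells are left out.

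Transcripts that the study named as m6A-tagged were higher in Mettl3-CKO early-marker cells. The study had picked these 8 genes from these same samples, so their direction is not independent evidence. Zfp292, a zinc finger gene, was at 199.7 and 438 CPM, a ratio of 2.19 (1.90 to 2.53), and Nxt1, an mRNA export factor, at 38.0 and 93.2 CPM, a ratio of 2.45 (1.78 to 3.42). Apex1, a DNA repair enzyme, was at 169.6 and 290.1 CPM. All 8 were above 1, 6 of them by at least 1.5-fold, with a median log2 ratio of 0.75 in all early-marker cells, 0.71 at 4000 to 16000 UMIs and 0.57 in the other cells. The 8 genes summed to 960 and 1658 CPM in early-marker cells and 879 and 1704 CPM in Müller-marker cells. In committed cells they summed to 1193 and 1776 CPM, and in G2/M cells to 883 and 1511 CPM. Zfp292 had ratios of 2.76 in Müller-marker, 2.20 in committed and 2.16 in G2/M cells.

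Genes of the m6A machinery leaned the same way. Rbm15, an adaptor of the writer complex, was at 35.4 and 76.3 CPM, a ratio of 2.16 (1.53 to 3.07), and Wtap, which holds the complex together, at 64.8 and 101 CPM. Of 17 genes, 6 were at least 1.5-fold higher and 0 lower, with a median of 0.51 in early-marker cells and 0.15 in the other cells. The marker classes differed alike, since the machinery summed to 1162 and 1500 CPM in early-marker cells, 1107 and 1395 CPM in Müller-marker cells, 1366 and 1683 CPM in committed cells and 1171 and 1512 CPM in G2/M cells. Rbm15 had ratios of 2.34 in Müller-marker and 2.42 in G2/M cells. At 4000 to 16000 UMIs 3 of 17 passed 1.5-fold. Mettl3 itself was at 29.5 and 31.3 CPM, from 45 and 39 UMIs, a ratio of 1.06 (0.675 to 1.67). The libraries count the 3′ ends of transcripts, and which part of the gene was deleted was not checked here, so this value does not show whether Mettl3 was deleted. The demethylases Fto and Alkbh5 were at 84.5 and 81.2 CPM and at 135.5 and 128 CPM.

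Targets of p53 differed unevenly. Cdkn1a, a cell cycle inhibitor, was at 13.1 and 88.4 CPM, a ratio of 6.75 (4.17 to 11.5), with UMIs in 10 control and 19 Mettl3-CKO cells and a ratio of 5.69 in the other cells. Phlda3 was at 4.58 and 39.4 CPM and Ccng1 at 8.51 and 30.5 CPM. Mdm2, which degrades p53, was at 53.03 and 64.3 CPM, a ratio of 1.21 (0.879 to 1.67). Of 8 targets 4 were at least 1.5-fold higher, with a median of 0.63, and of 0.25 at 4000 to 16000 UMIs, where 2 of 6 passed. In the other cells the median was 0.64. The targets summed to 337 and 595 CPM in early-marker cells and 381 and 959 CPM in Müller-marker cells. In committed cells they summed to 408 and 670 CPM, and in G2/M cells to 389 and 607 CPM. Cdkn1a had a ratio of 16.4 in Müller-marker cells.

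Photoreceptor transcripts were higher in Mettl3-CKO early-marker cells, with a large part of their UMIs in 1 cell. Of 10 rod markers 9 were at least 1.5-fold higher, with a median of 1.54. Pdc, a regulator of phototransduction, was at 98.9 and 299.7 CPM, but 50.4% of its Mettl3-CKO UMIs lay in the deepest cell. At 4000 to 16000 UMIs 3 of 8 rod markers passed 1.5-fold and the median was 0.52. The summed level of the 12 rod markers was 495 and 1384 CPM in all early-marker cells, 480 and 636 CPM in that range, and 15318 and 14783 CPM in the remaining cells. It was 672 and 1362 CPM in Müller-marker, 925 and 1594 CPM in committed and 353 and 1175 CPM in G2/M cells, so these classes were higher too. The part of rod transcripts from other cells in these values was not tested. Of 3 cone markers 3 were higher, where Pde6h had 86.7% of its Mettl3-CKO UMIs in 1 cell.

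Lists of progenitor, cell cycle, signalling and dissociation genes had medians from -0.27 to 0.47, against 0.05 over all genes. Progenitor factors had a median of -0.08, with 1 of 17 higher and 1 lower by 1.5-fold. The lower gene was Ccnd2, at 134 and 3.21 CPM, of which the 6 cells with Pax2 supplied 99.0% in the control. S-phase genes had a median of 0.47, close to the 0.53 of the other cells. Genes of FGF and ERK feedback had a median of -0.27, with 0 of 9 higher and 2 lower, and genes of BMP, Wnt and Shh signalling 0.39, with 2 of 7 higher and a median of 0.40 in the other cells. Genes induced by dissociation had a median of -0.16, with 0 of 10 higher and 2 lower. Markers of bipolar, amacrine, horizontal and ganglion, and microglial and vascular cells had 3, 4, 3 and 3 genes with enough UMIs, with medians of -0.49, 0.66, -0.86 and 0.01.

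Of the 20 genes furthest apart between libraries, several were set by single cells. Elavl3, an RNA-binding protein of neurons, was at 9.82 and 96.4 CPM, a ratio of 9.82 (5.72 to 18.1), of which 39.2% of the Mettl3-CKO UMIs lay in 1 cell, and the ratio was 4.59 at 4000 to 16000 UMIs. Serpine2, a secreted protease inhibitor, was at 27.5 and 88.4 CPM in 33 and 34 cells, a ratio of 3.21 and of 2.71 in that range. Fn1, a matrix protein, was at 213 and 8.84 CPM, 24.1-fold lower, and 2.38-fold lower in that range. Crip1 and Pdlim3, 9.72-fold and 5.70-fold lower over all early-marker cells, were each within 1.5-fold between libraries in that range, with ratios of 1.09 and 0.889. Of the 10 highest 9 and of the 10 lowest 8 stayed past 1.5-fold.

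When the genes furthest apart were taken from cells of 4000 to 16000 UMIs alone, Gngt2, Serpine2, Sox11, Nxt1, Cenpb, Tulp1, Lcmt2, Rassf4, Rbm15 and Zfp292 were the highest. Gngt2, a cone transducin subunit, turned to a log2 ratio of -0.46 over cells with at least 4 early genes. Several of these were spread over many cells. Cenpb, a centromere protein, was at 72.0 and 147 CPM over all early-marker cells, with UMIs in 65 and 88 cells. The lowest in that range were Npy, Neat1, Slitrk2, Ddah1, Dusp10, Aldoc, Adam23, Phlda1, Nxph4 and Cntn1. Cntn1, an adhesion molecule of neurons and glia, was at 155 and 61.9 CPM, in 95 and 40 cells, and Ddah1, which degrades methylated arginine, at 147 and 24.9 CPM, in 63 and 23 cells.

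**Figure D5:**
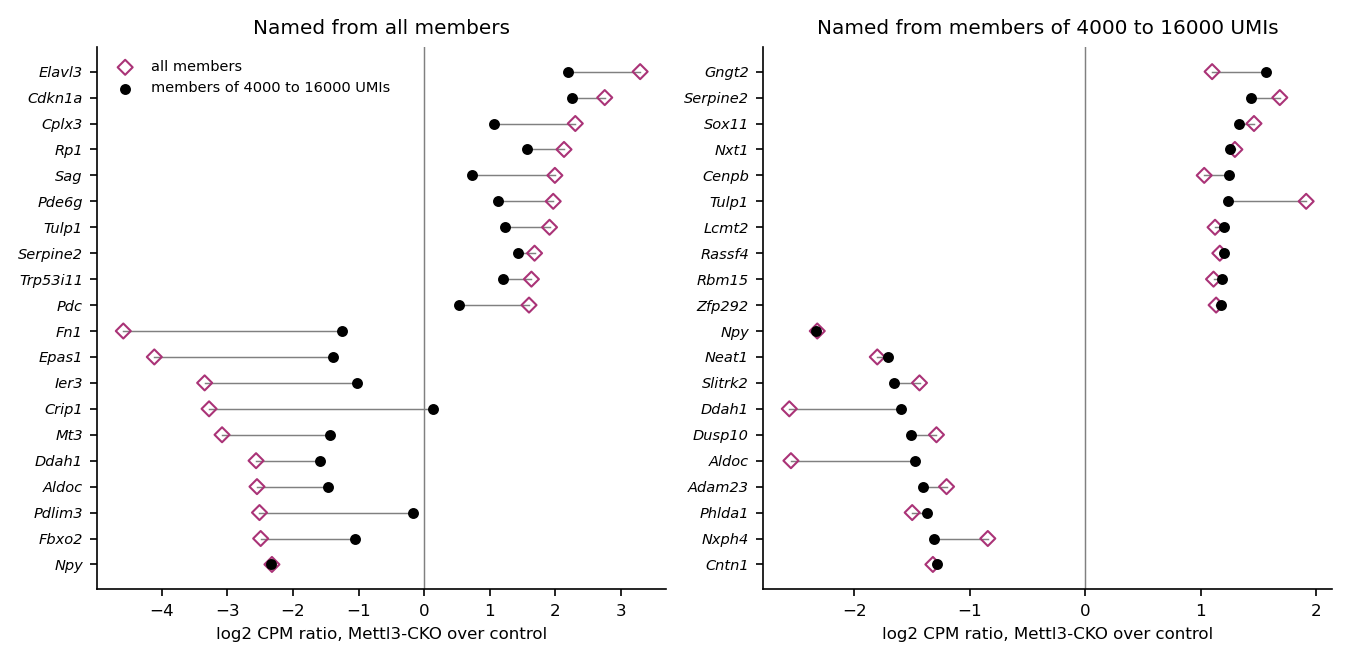
Log2 CPM ratio of Mettl3-CKO over control for the 20 genes furthest apart in all early-marker cells (left) and for the 20 furthest apart in those of 4000 to 16000 UMIs (right), each in all early-marker cells (open diamonds) and in that depth range (black circles, joined to the diamonds by grey lines). Fn1, Epas1 and Crip1 move far toward 0 without the deep cells, while Sox11, Zfp292, Nxt1 and Npy keep their place.

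The libraries also differed in the sex of their cells. Xist, the noncoding RNA of the inactive X chromosome, had a UMI in 1 of 154 control and 76 of 131 Mettl3-CKO early-marker cells. Y-linked genes had a UMI in 133 of the control cells and 49 of the Mettl3-CKO cells, and both kinds were seen in 6 of the latter. Sex and genotype therefore cannot be told apart over all cells. Among all Mettl3-CKO cells with at least 4000 UMIs, 208 of 2170 held both Xist and a Y-linked UMI, while the doublet caller had marked 32 Mettl3-CKO cells. Whether these are mixed cells or stray RNA was not tested. Against the control, the ratio was 0.413 in Mettl3-CKO cells without Xist and 0.512 in those with it for Rlbp1, 2.28 and 3.04 for Sox11, 2.49 and 2.14 for Insm1, 2.24 and 2.17 for Zfp292 and 0.899 and 0.894 for Hes5. For these 5 genes, chosen after their values were seen, the Mettl3-CKO cells of either kind lay on the same side of the control. Cplx3 did not, at 0.856 without Xist and 7.44 with it. Median log2 ratios without and with Xist were 0.44 and 1.95 for rod markers and 0.036 and 0.46 for S-phase genes. They were -1.01 and -0.67 for Müller markers. An effect of sex was not tested.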

How the data were processed

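Single-cell RNA-seq libraries of 1 control and 1 Mettl3-CKO pool of retinas at postnatal day 7 were analysed. The deposited values are raw UMI counts per gene and cell. The authors cleaned reads with fastp and counted on GRCm38 (mm10) with Cell Ranger. The submitters' processing notes name Cell Ranger 3.1.0 and Seurat 3.1. Whether counting used the strand is not given in the sources used here. The study kept cells with over 200 genes and under 20% mitochondrial UMIs, a filter not applied here, which 237 control cells, 86 Mettl3-CKO cells and 0 early-marker cells would fail. The matrices as read ended early, so 3994 of 5995 control and 3109 of 6992 Mettl3-CKO cells were complete. The other cells were not analysed here. Gene positions are from the GENCODE annotation of GRCm38. Of 45 rule and named genes, 26 overlap another gene, and their UMIs could include that gene's.

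The rule gave 285 cells. UMIs were summed over cells and given per 1000000 UMIs outside mitochondrial genes. Genes with at least 50 UMIs in the cells compared entered, a count of 0 being set to a limit of 3. Levels carry exact Poisson, level ratios exact conditional binomial, shares exact Clopper-Pearson and share ratios Katz intervals at 95%, for counting error only. With 1 library per group no p-value or standard error was computed. Genes were named when they had at least 100 UMIs and were seen in 10% of cells, as the 12 highest and 6 lowest over other cells and the 10 highest and 10 lowest between libraries, with predicted and rule genes left out. Other genes came from gene lists and were chosen after their values were seen. Members, lists and comparisons were chosen with earlier results of these data known. The range of 4000 to 16000 UMIs, the cells with Pax2 and the split by Neurog2 were chosen after seeing the data. Other scalings, minima, thinnings and subsets of cells were tried. Values of some genes are not reported here, and list counts include them. The ratios were tested on simulated data. Python 3.11.15, numpy 2.4.6, scipy 1.17.1, pandas 2.3.3, matplotlib 3.10.9 and, for doublets, scrublet in scanpy 1.11.5 were used.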

Additional observations from a re-analysis of the deposited data

Results flagged for a closer look

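Xist was kept apart with the sex-linked genes and entered none of the gene group comparisons above. It was at 1255 CPM in Mettl3-CKO early-marker cells while 1 UMI was seen in the control early-marker cells. It was listed here because a signal outside the main measurement stood above its level in the control library. Y-linked genes had a UMI in 49 of the 131 Mettl3-CKO cells, so cells of either sex were present in that pool.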

How the results depend on the processing

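No paired analysis was possible because each group is 1 library and the labels share no replicate numbers, and no replicate could be left out. Among the main list medians, shares and counts, 124 of 144 values stayed close to the reported one and 20 moved. Among the values of other lists and single named genes, 499 stayed close, 174 moved and 7 turned direction. A list median counted as close inside the counting interval of its middle gene, and a count within 1.5-fold. The share ratio of early-marker cells was 1.51 after thinning to 2000 UMIs, and the S-phase share ratio 0.659. The median log2 ratio of Notch effectors was -0.31 with at least 4 early genes, -0.061 and -0.36 in Mettl3-CKO cells without and with Xist, and -0.093 without the cells with Pax2 and the deepest Mettl3-CKO cell. That of proneural factors was 0.082 with at least 4 early genes and 0.34 without those cells. That of p53 targets was 0.89 without Xist and 0.81 with no UMI minimum. That of rod markers was 0.73 as a mean over cells, 0.44 without Xist, 0.52 at 4000 to 16000 UMIs and 0.32 without those cells. Genes at least 1.5-fold higher numbered 264 with at least 4 early genes, 1057 with a minimum of 25 UMIs and 270 with a minimum of 100, and lower genes 723 and 222 with these minima. Genes at least 2-fold higher than in other cells numbered 296 with at least 4 early genes. Directions turned for the fate factors (-0.17 with at least 4 early genes), Cplx3 (-0.22 without Xist), Crip1 (0.25 with at least 4 early genes, 0.13 at 4000 to 16000 UMIs, 0.18 without those cells), Gngt2 (-0.46) and Pdlim3 (2.78) with at least 4 early genes. The cause was not tested, except that higher minima leave fewer genes. Depth and cell number limit genes under about 50 UMIs.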
